A study of Mus musculus with 4 samples.

Results

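The genes described are the 37 carried by the mouse mitochondrial genome, taken as every row of the deposited table whose gene name starts with mt-, among 56035 gene rows. They comprise 13 protein genes, 2 ribosomal RNA (rRNA) genes and 22 transfer RNA (tRNA) genes, and the rule reads the gene's name alone. The tissue was the trigeminal ganglion, which holds the sensory neurons of the face together with their glia. The mice were 8-week-old C57BL/6 males. The 2 WT libraries came from littermates of the knock-in animals. The 2 K823R libraries came from mice whose Trpv1 gene, encoding the heat- and capsaicin-gated channel of pain neurons, carries arginine in place of lysine, and whose genotype label reads transgenic. The protocol speaks of 2 pairs of ganglia without dividing them among libraries, so the number of animals per library is unknown and p-values measure only the spread between these libraries, which may be technical. Values are TPM, which are scaled for gene length. The effective lengths behind them are unknown here, which limits comparisons of level for the shortest genes (mt-Atp8, 204 bases; mt-Nd4l, 297; mt-Nd3, 348). Read totals are not recoverable from TPM, so no counting interval is given and depth is unknown.

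The mitochondrial genome encodes core subunits of the respiratory chain, together with the rRNAs and tRNAs used to translate them inside the organelle. Each strand is transcribed as a long precursor that is cut into separate RNAs, largely at the tRNAs that lie between the other genes. The messenger RNAs receive short poly(A) tails, which in several cases also complete the stop codon, and every other respiratory subunit comes from the nucleus. Sensory neurons supply long axons and are known for a high demand for oxidative phosphorylation. Nuclear chromosomes also hold old insertions of mitochondrial DNA, some of them nearly identical in sequence to the organelle's genome.

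The arrangement of the genes bears on what a TPM table can separate. By the GENCODE M21 annotation, on GRCm38, 28 of the 37 genes lie on the plus strand, and the 9 on the minus strand are mt-Nd6 and 8 tRNA genes. The ATP synthase genes mt-Atp8 and mt-Atp6 are read in different frames from one messenger, and they overlap by 43 bases. The whole of mt-Atp8 (chrM:7766-7969, plus strand) and the first 90 bases of mt-Atp6 (chrM:7927-8016) are shown because these neighbours stood at the opposite ends of the table. The shared bases are in capitals.
mt-Atp8: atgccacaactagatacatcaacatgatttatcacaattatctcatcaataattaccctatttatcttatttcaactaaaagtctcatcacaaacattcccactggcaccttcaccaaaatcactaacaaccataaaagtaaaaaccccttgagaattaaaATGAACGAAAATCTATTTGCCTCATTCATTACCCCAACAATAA
mt-Atp6: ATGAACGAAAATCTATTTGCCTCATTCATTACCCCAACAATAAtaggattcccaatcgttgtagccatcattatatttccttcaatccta
The complex I genes mt-Nd5 (plus strand) and mt-Nd6 (minus strand) overlap tail to tail by 14 bases, given in capitals in the last 60 bases of each (chrM:13506-13565 and chrM:13552-13611). The strand setting of the counting is not given in the sources used here, so reads over such antisense stretches may not be separable.
mt-Nd5: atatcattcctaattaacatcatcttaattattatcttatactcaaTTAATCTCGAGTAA
mt-Nd6: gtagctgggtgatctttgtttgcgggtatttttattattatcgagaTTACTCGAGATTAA

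The annotated coding ends differ between the genes. Of the 13 protein genes 10 are annotated with a complete stop codon. The other 3 (mt-Co3, mt-Nd4 and mt-Cytb) stop after the first base of one, so that the tail supplies the rest. The last 30 bases of mt-Cytb (chrM:15259-15288), which ends in such a lone base, are set beside those of mt-Nd1 (chrM:3678-3707). The annotation of mt-Nd1 includes a full stop codon. However, the last 2 bases of mt-Nd1, and of mt-Nd2, also belong to the next tRNA gene on the same strand (mt-Ti and mt-Tw). Annotated gene ends therefore need not be the ends of the cut messengers. Capitals mark the terminal base or codon.
mt-Cytb: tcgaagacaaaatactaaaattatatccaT
mt-Nd1: tttacagcgggagtaccaccatacataTAG
Protein genes ranged in length from 204 to 1824 bases and in GC content from 31.9% to 41.1%.

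Of the 37 genes, 15 reached a mean of 1 TPM over the 4 libraries and were tested, and the other 22 were listed at 0 in every library. The zeros comprised 21 of the 22 tRNA genes and mt-Atp6. These genes are described as listed at 0 and not as absent, since mt-Atp6, which encodes a membrane subunit of ATP synthase that respiring cells use, is one of them. The tRNA genes are 59 to 75 bases long, and of the 813 other rows in that length range 1 (0.123%) was above 0 in any library, the microRNA gene Mir344b at 1.28 to 2.39 TPM. The exception among the tRNAs was mt-Tp, the proline tRNA (chrM:15356-15422, minus strand), whose sequence is given because it was the lone tRNA with a value.
mt-Tp: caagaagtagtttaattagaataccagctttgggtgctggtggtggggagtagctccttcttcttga
It stood at 131 and 141 TPM (WT) against 142 and 132 TPM (K823R), so the groups overlapped (log2 difference 0.013, SE 0.082; limma adjusted p = 0.991). Without a stated strand setting, reads of this gene and of transcripts crossing it on the other strand cannot be told apart.

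Copies on chromosome 1 shared the signal of 7 of the 13 protein genes. A search of all other annotated transcripts (at least 95% identity over 90% of the copy) found 11 pseudogenes matching a mitochondrial gene, and 4 of them were at 0.193 TPM or less on average. The other 7 form one block of 4663 bases on chromosome 1 (24611535 to 24616197, minus strand). Their matches span the mitochondrial stretch from position 6390 to 11042, from the end of mt-Co1 to the middle of mt-Nd4. The gene mt-Atp8 (chrM:7766-7969) lies inside that stretch, but no annotated transcript of the block matched it. It therefore has no copy row, and any reads it shares with unannotated parts of the block could not be summed. For mt-Co2, mt-Atp6, mt-Co3, mt-Nd4l and the copied part of mt-Nd4 the match was 100% identical, so reads there cannot be told apart by sequence. The pair of mt-Nd3 (chrM:9459-9806) and its copy Gm28438 (chromosome 1, 24612775 to 24613119) differed at 1 of 345 aligned bases. That substitution, T3C, counts from the first base of mt-Nd3 and gives the mitochondrial base first. It lies in the start codon and is in capitals in the first 30 bases of each.
mt-Nd3: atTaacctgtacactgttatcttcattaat
Gm28438: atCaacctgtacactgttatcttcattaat
The mt-Co1 copy, Gm29216, also carried 1 substitution, A1066T, over 483 aligned bases.

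**Figure D1:**
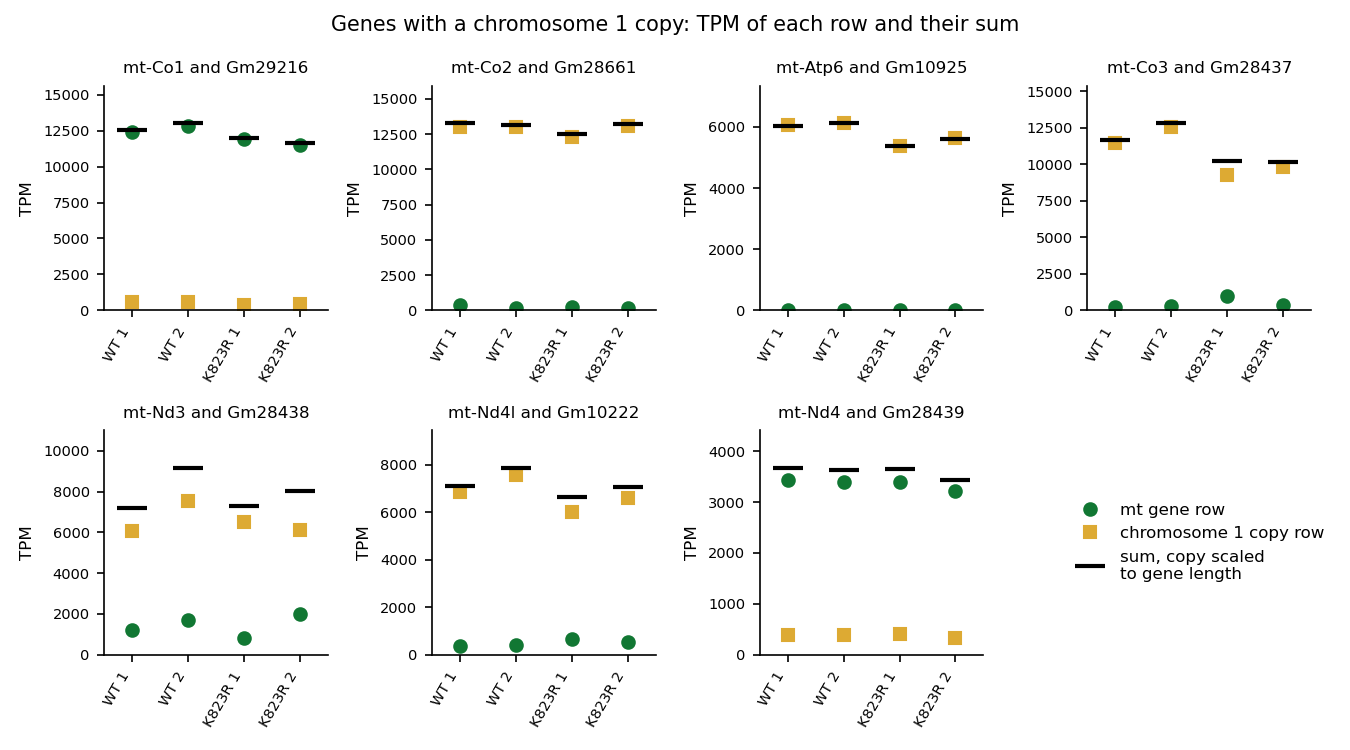
TPM (vertical axes, from 0) of each mitochondrial gene row (circles), its chromosome 1 copy row (squares) and their sum with the copy scaled to the gene's length (short black lines), in the 4 libraries on the horizontal axes. For mt-Co2, mt-Atp6, mt-Co3, mt-Nd3 and mt-Nd4l the copy row held most of the sum, and for mt-Co1 and mt-Nd4 the mitochondrial row did.

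In the table most of the paired signal stood in the pseudogene rows where a gene was copied nearly whole. The cytochrome oxidase gene mt-Co2 was listed at 343 and 139.8 TPM (WT) against 238 and 195 TPM (K823R), while Gm28661, its copy, stood at 12967 and 13029 TPM (WT) against 12284 and 13082 TPM (K823R). Thus the mitochondrial row of mt-Co2 held 1.07% to 2.59% of the sum over the pair. Gm10925, the copy of mt-Atp6, stood at 6055 and 6144 TPM (WT) against 5391 and 5632 TPM (K823R), with mt-Atp6 itself at 0. Among all rows Gm28661 ranked 2 in all 4 libraries, below mt-Atp8 at rank 1 and above mt-Co1 at rank 3. Where the copy is partial the order was reversed, and mt-Co1 held 98.4% to 99.1% and mt-Nd4 92.9% to 93.9% of the length-scaled sum. Of the 20 most abundant rows in each library, 5 or 6 were mitochondrial genes and 5 were chromosome 1 copies. The share assigned to the organelle's row varied between libraries, from 1.89% to 9.41% for mt-Co3, from 11.3% to 24.6% for mt-Nd3 and from 4.97% to 10.02% for mt-Nd4l.

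Levels differed more between genes than between genotypes, as the plot of TPM by library shows for the rows alone. For the order, each copied gene is taken as its length-scaled sum with the copy. A neighbour in the order is called separate where the ranges over the 4 libraries did not meet. The unknown effective lengths limit the places of the shortest genes, mt-Atp8, mt-Nd4l and mt-Nd3. The highest was mt-Atp8 at 23418.5 to 29394 TPM, separate from all others. The 3 cytochrome oxidase genes followed at 12469 to 13253 TPM (mt-Co2), 11658 to 13006 TPM (mt-Co1) and 10149 to 12810.4 TPM (mt-Co3), with ranges that met. The next levels were those of the complex I genes mt-Nd3 (7209.9 to 9181 TPM) and mt-Nd4l (6623 to 7868 TPM), then of mt-Atp6 (5367 to 6117 TPM) and mt-Cytb (5271 to 5644 TPM), again with ranges that met within each pair. Below them mt-Nd5, mt-Nd1, mt-Nd4, mt-Nd2 and mt-Nd6 were each separate from their neighbours, from 4459 to 5109 TPM for mt-Nd5 down to 1598 to 1704 TPM for mt-Nd6. The rRNAs were far lower, at 408 to 657 TPM for mt-Rnr1 and 355 to 504 TPM for mt-Rnr2, in libraries made from isolated messenger RNA, and mt-Tp was the lowest at 131 to 142 TPM.

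**Figure D2:**
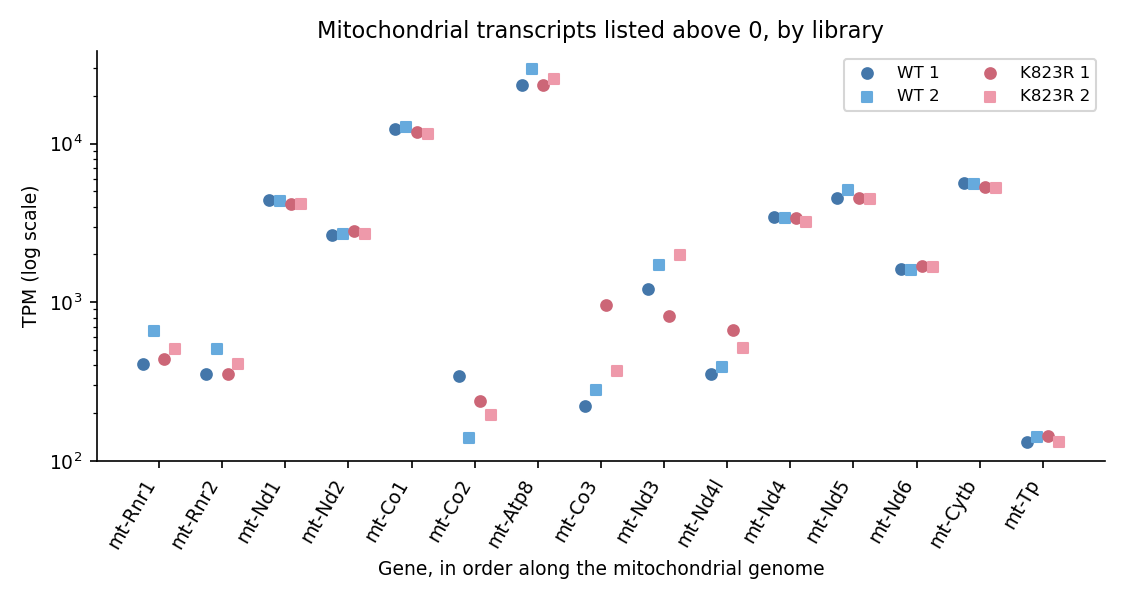
TPM on a log scale (vertical axis) of the 15 mitochondrial genes listed above 0, in their order along the genome, with 1 point per library (blue, WT; red, K823R; circles, replicate 1; squares, replicate 2), from rows taken alone. The points of mt-Co2, mt-Co3, mt-Nd3 and mt-Nd4l, which have a near-complete chromosome 1 copy, lie further apart than those of mt-Nd1, mt-Cytb or mt-Nd6. The points of mt-Rnr1 (408 to 657 TPM) and mt-Rnr2 (355 to 504 TPM), for which no copy was found, also lie apart.

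The sums of gene and copy lay closer between replicates of one genotype than the rows alone. For mt-Co2, mt-Co3, mt-Nd3 and mt-Nd4l the sum is mostly the larger copy row, so the change cannot show which count is right. For the 6 tested genes with a copy, the median absolute log2 difference between replicates was 0.32 for the rows alone (range 0.016 to 1.38 over 12 differences) and 0.088 for the sums (0.011 to 0.35). For the 9 tested genes without a copy row, mt-Atp8 among them, it was 0.084 (0.010 to 0.68). The widest spread among genes without a copy row was that of mt-Rnr1, the small-subunit rRNA.

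The share of all TPM held by the 37 genes did not separate the genotypes. It was 6.12% and 6.88% (WT) against 6.09% and 6.28% (K823R), so WT replicate 2 was high and the other 3 libraries were close (difference -0.31 percentage points, exact two-sided permutation p = 0.667). With 2 libraries against 2 such a test cannot give a p below 0.333. Most of the gap of WT replicate 2 lay in mt-Atp8, which alone held 2.34% and 2.94% of all TPM (WT) against 2.35% and 2.57% (K823R). The chromosome 1 copies held another 4.43% and 4.78% (WT) against 4.02% and 4.20% (K823R). Genes and copies together made up 10.55% and 11.65% (WT) against 10.12% and 10.48% (K823R), and here both K823R libraries lay below both WT libraries (difference -0.80 percentage points, exact permutation p = 0.333). In whole tissue, fewer cells rich in mitochondria and less of this RNA per cell cannot be told apart. Without WT replicate 2 the difference for the 37 genes was 0.071 percentage points, and without WT replicate 1 it was -0.69. For genes and copies together it was -0.25 without WT replicate 2 and -1.35 without WT replicate 1.

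**Figure D3:**
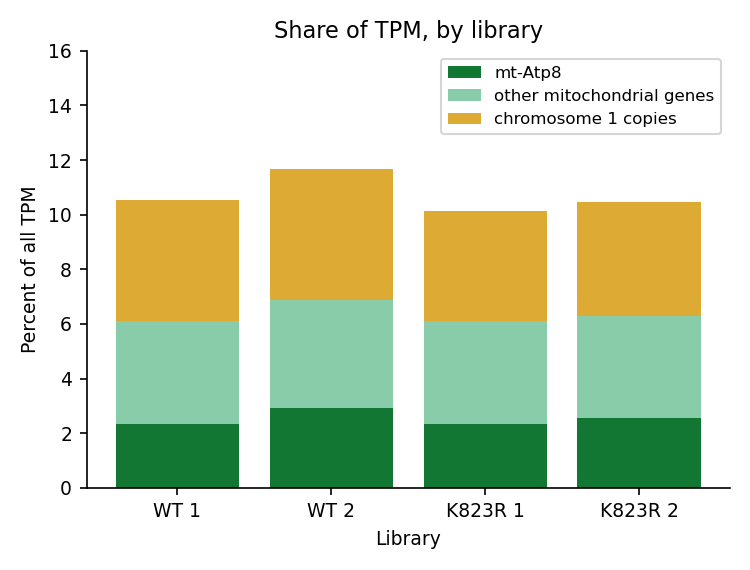
Percent of all TPM (vertical axis, from 0) held in each of the 4 libraries by mt-Atp8, by the other mitochondrial genes and by the 7 chromosome 1 copies, as stacked bars. The total runs from 10.12% in K823R replicate 1 to 11.65% in WT replicate 2.

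The libraries differed in their cell markers as well, and the part of this in the results below was not tested. Sensory neuron markers (15 of 15 found, among them Avil, Prph and Scn10a) summed to 10453 to 12208 TPM (WT) against 11562 to 12047 TPM (K823R), with WT replicate 2 lowest and none at 0 throughout. Oligodendrocyte and astrocyte markers (7 of 7 found) summed to 12.3 TPM in WT replicate 1, which stood apart, and to 211 TPM in WT replicate 2, 254 TPM in K823R replicate 1 and 304 TPM in K823R replicate 2. Myelinating Schwann cell markers summed to 11436 to 14221 TPM (WT) against 14158 to 16877 TPM (K823R). Fibroblast and meningeal markers (5 of 5 found) summed to 323 to 1022 TPM (WT) against 863 to 2798 TPM (K823R), and pituitary markers (5 of 5 found, Lhb at 0) to 1.69 to 4.28 TPM against 19.5 to 22.9 TPM. Skeletal muscle markers, from a tissue rich in mitochondria, summed to at most 6.24 TPM in any library, and brown fat markers to at most 24.9 TPM.

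No mitochondrial gene passed the test between genotypes. Of 15 tested, 0 had a limma adjusted p below 0.05, against 1 of all 15390 genes tested (0.00650%), and adjusted p ran from 0.918 to 0.997. Unadjusted p was below 0.05 for 2 (mt-Co3 and mt-Nd4l) against 4.76% of all genes. The median log2 difference, taken as K823R minus WT in log2(TPM + 1), was -0.072 over these 15 and 0.026 over all genes tested, with 5 of the 15 above 0, against 57.4% of all genes. For 9 of the 15 the libraries of the genotypes did not overlap, against 34.0% of all genes. They were higher in K823R for 4 (19.4% of all genes) and lower for 5 (14.6%). These genes are cut from shared precursors and are not independent of each other. Without WT replicate 2 the median was 0.057, and without WT replicate 1 it was -0.061.

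**Figure D4:**
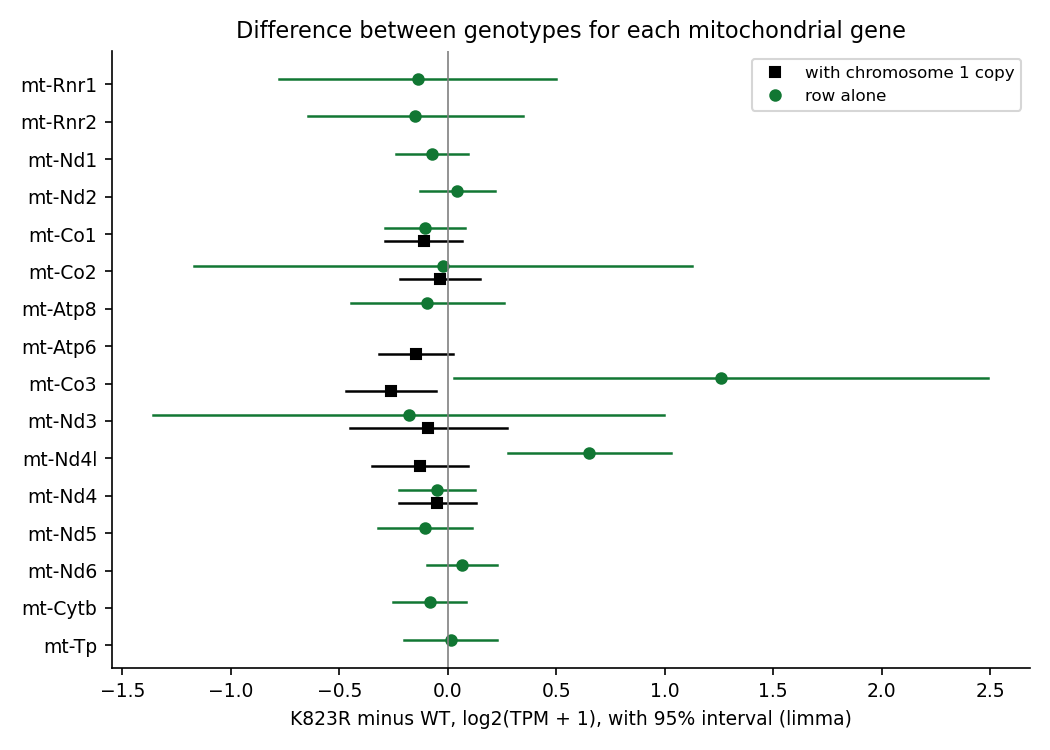
Difference between genotypes (horizontal axis, K823R minus WT in log2(TPM + 1)) with its 95% interval from limma, for 16 mitochondrial genes, from rows alone (green circles) and summed with the chromosome 1 copy (black squares). The circles of mt-Co3 and mt-Nd4l lie right of 0 at 1.26 and 0.65 and their squares lie left of it at -0.26 and -0.13.

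Complex I, the entry point of electrons from NADH, takes 7 subunits from this genome. Outside the copied stretch, mt-Nd1, a membrane subunit beside the quinone site, stood at 4413 and 4347 TPM (WT) against 4183 and 4153 TPM (K823R). Both K823R libraries were lower, by a log2 difference of -0.072 with an SE of 0.063 (limma adjusted p = 0.921). The antiporter-like subunit mt-Nd2 stood at 2654 and 2690.4 TPM (WT) against 2816 and 2696 TPM (K823R), with the K823R libraries above by little (log2 difference 0.044, SE 0.065; adjusted p = 0.950). It was 0.013 without K823R replicate 1 and 0.076 without K823R replicate 2. Another antiporter-like subunit, mt-Nd5, stood at 4568 and 5109 TPM (WT) against 4534 and 4459 TPM (K823R). Its groups did not overlap either, though 4568 and 4534 TPM are close (log2 difference -0.10, SE 0.082; adjusted p = 0.918). That difference was -0.023 without WT replicate 2 and -0.18 without WT replicate 1. The one protein gene of the minus strand, mt-Nd6, stood at 1619 and 1598 TPM (WT) against 1704 and 1665 TPM (K823R). Thus mt-Nd6 was higher in both K823R libraries while its plus-strand neighbours mt-Nd5 and mt-Cytb were lower in both (mt-Nd6 log2 difference 0.066, SE 0.062; adjusted p = 0.929). The plus-strand gene mt-Nd2 was also higher in both. Reads of mt-Nd6 and of plus-strand transcripts crossing it may not be separable, since the strand setting is not given. The ratio of mt-Cytb to mt-Nd6 was 3.48 and 3.49 in WT and 3.12 and 3.16 in K823R (exact permutation p = 0.333, the smallest possible, chosen after the values were seen).

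The copied complex I genes depended on how the pair was counted. For mt-Nd4l, a small membrane subunit, the row alone stood at 353 and 391 TPM (WT) against 664 and 514 TPM (K823R), so both K823R libraries were higher. The log2 difference was 0.65 with an SE of 0.14 and a 95% interval of 0.28 to 1.03 (limma adjusted p = 0.918, unadjusted p = 0.00720). Its copy Gm10222 stood at 6828 and 7554 TPM (WT) against 6019.8 and 6609.9 TPM (K823R), lower in both. The sum was 7112 and 7868 TPM (WT) against 6623 and 7057 TPM (K823R), with a log2 difference of -0.13 (SE 0.084, adjusted p = 0.918). For mt-Nd3 the row alone, at 1213 and 1717 TPM (WT) against 822 and 1973 TPM (K823R), placed the K823R libraries at both extremes. Its sum was 7209.9 and 9181 TPM (WT) against 7283 and 8019 TPM (K823R), still overlapping (log2 difference -0.090, SE 0.14; adjusted p = 0.952). The row of mt-Nd4 alone stood at 3438 and 3401 TPM (WT) against 3393 and 3218 TPM (K823R), lower in both K823R libraries (log2 difference -0.049, SE 0.067; adjusted p = 0.941, and -0.011 without K823R replicate 2). The sum of mt-Nd4 was 3679 and 3642 TPM (WT) against 3653 and 3428 TPM (K823R), overlapping (-0.049, SE 0.068; adjusted p = 0.944).

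Complex III takes a single subunit from this genome, the cytochrome b gene mt-Cytb, which carries electrons from quinol. It lies outside the copied stretch and stood at 5644 and 5581 TPM (WT) against 5316 and 5271 TPM (K823R). Replicates were close and both K823R libraries were lower, by a log2 difference of -0.084 (SE 0.064, 95% interval -0.25 to 0.083; limma adjusted p = 0.918).

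Complex IV, cytochrome oxidase, takes its catalytic core of 3 subunits from this genome, and all 3 genes have a chromosome 1 copy. The row of mt-Co1, the subunit that holds the oxygen-reducing centre, stood at 12379 and 12822 TPM (WT) against 11906 and 11510.5 TPM (K823R). The K823R libraries were lower with or without the partial copy (log2 difference -0.11 for each, SE 0.070 and 0.068; adjusted p = 0.918), and for the row alone the difference was 0 under quantile normalization. The sum of mt-Co2, the subunit that accepts electrons from cytochrome c, was 13253 and 13112 TPM (WT) against 12469 and 13219.8 TPM (K823R), overlapping (-0.038, SE 0.070; adjusted p = 0.959). The row of mt-Co3 alone stood at 220.4 and 281 TPM (WT) against 963 and 370.3 TPM (K823R), with K823R replicate 1 far above the rest. That gave a log2 difference of 1.26 with an SE of 0.47 (95% interval 0.029 to 2.49, limma adjusted p = 0.918, unadjusted p = 0.0466), 0.57 without K823R replicate 1 and 1.95 without K823R replicate 2. Its copy Gm28437 lay the other way, at 11434 and 12545 TPM (WT) against 9275 and 9791 TPM (K823R). The sum of mt-Co3 was 11639.9 and 12810.4 TPM (WT) against 10226 and 10149 TPM (K823R), and both K823R libraries were lower. The log2 difference of the sum was -0.26 with an SE of 0.078 and a 95% interval of -0.47 to -0.056 (adjusted p = 0.918, unadjusted p = 0.0229).

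Complex V, the ATP synthase, takes its mt-Atp6 and mt-Atp8 subunits from one overlapping messenger. The row of mt-Atp8 stood at 23418.5 and 29394 TPM (WT) against 23471 and 25713 TPM (K823R), so the genotypes overlapped (log2 difference -0.095, SE 0.13; limma adjusted p = 0.945), and without WT replicate 2 the difference was 0.069. The sum of mt-Atp6 and Gm10925, all of it from the copy's row, was 6029 and 6117 TPM (WT) against 5367 and 5607 TPM (K823R). Both K823R libraries were lower (log2 difference -0.15, SE 0.066, 95% interval -0.32 to 0.026; adjusted p = 0.918). The ratio of mt-Atp8 to this sum was 3.88 and 4.81 in WT and 4.37 and 4.59 in K823R, for genes that share a messenger. Since mt-Atp8 lies in the copied stretch without a copy row, its row could not be summed in the same way.

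With the copies summed, 16 genes could be compared and again 0 passed limma, with 1 (mt-Co3) below an unadjusted p of 0.05 against 4.75% of all 15384 genes in that fit. Of the 16, 13 were below 0 and 3 above, where 57.4% of all genes in that fit were above 0. Their median log2 difference was -0.093, against 0.026 over all genes. The genotypes did not overlap for 9, against 34.0% of all genes. They were lower in K823R for 7 (14.6% of all genes) and higher for 2, mt-Nd2 and mt-Nd6 (19.4%). All 7 genes with a copy row were below 0 as sums, whereas 2 of the 6 that could be tested as rows alone were above it. The sums were not refitted without single libraries. For mt-Atp8, mt-Nd3, mt-Rnr1 and mt-Rnr2, WT replicate 1 lay below both K823R libraries, so their signs rested on WT replicate 2. For mt-Nd3 its sum was 7209.9 TPM against 7283 and 8019 TPM (K823R). For the others below 0, WT replicate 1 lay above both K823R libraries. The 16 share precursors, so they are not independent of each other.

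The rRNAs varied together across libraries. The small-subunit rRNA mt-Rnr1 stood at 408 and 657 TPM (WT) against 436 and 507 TPM (K823R). The large-subunit rRNA mt-Rnr2 stood at 355 and 504 TPM (WT) against 354.8 and 409.5 TPM (K823R). Both were highest in WT replicate 2, and the genotypes overlapped (log2 differences -0.14 and -0.15, SE 0.24 and 0.19; limma adjusted p = 0.958 and 0.938). Without WT replicate 2 the differences were 0.20 and 0.10. The ratio of mt-Rnr1 to mt-Rnr2 stayed between 1.15 and 1.30.

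The balance between complexes differed little between libraries. As a share of the summed mitochondrial TPM, copies included, complex I made up 29.9% and 29.7% (WT) against 30.6% and 30.2% (K823R), with both K823R libraries above (exact permutation p = 0.333). Complex IV made up 33.6% to 35.8%, complex V 28.1% to 30.7% and complex III 4.82% to 5.39%, and the genotypes overlapped for each. The rRNAs made up 0.729% to 1.003%.

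The nuclear genes that copy, transcribe, process and translate the mitochondrial genome were examined as 3 lists, of which 109 of 110 members reached 1 TPM. None passed limma at an adjusted p below 0.05 (0 of 109; adjusted p from 0.918 to 0.997), and 6 had an unadjusted p below 0.05 against 4.76% of all genes. Of the 31 tested genes of replication and transcription, 13 were above 0 and 18 below in K823R (median log2 difference -0.044). The termination-factor family member Mterf4 was at 16.4 and 17.01 TPM (WT) against 20.03 and 19.6 TPM (K823R). The nuclease gene Endog was at 26.7 and 29.9 TPM (WT) against 24.3 and 20.8 TPM (K823R). Dguok, which salvages purine deoxynucleosides for mitochondrial DNA, was at 39.7 and 37.1 TPM (WT) against 32.1 and 32.95 TPM (K823R). Tefm, the elongation factor of mitochondrial transcription, was at 7.12 and 8.27 TPM (WT) against 9.18 and 8.23 TPM (K823R), and overlapped. The groups of Mterf4, Endog and Dguok did not overlap, as for 12 of the 31 (38.7%, near the 34.0% of all genes).

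Of 44 genes for processing, stability and modification of mitochondrial RNA, 16 were above 0 and 28 below (median -0.023), where 57.4% of all genes were above 0. The groups did not overlap for 13 (29.5%, against 34.0% of all genes). Slirp, which with Lrpprc stabilises mitochondrial messengers, was at 30.2 and 29.7 TPM (WT) against 19.1 and 23.2 TPM (K823R) (log2 difference -0.49, SE 0.12; limma adjusted p = 0.918, unadjusted p = 0.0105). Yrdc, which makes the threonylcarbamoyl modification of tRNAs, was at 25.95 and 27.4 TPM (WT) against 17.3 and 18.8 TPM (K823R) (-0.54, SE 0.094; adjusted p = 0.918). Both were lower in K823R without overlap. Elac2, which trims the ends of tRNAs, was at 20.2 and 18.9 TPM (WT) against 21.98 and 22.9 TPM (K823R), and the tRNA-processing factor gene Ptcd1 was at 11.5 and 9.62 TPM (WT) against 12.8 and 12.8 TPM (K823R), higher without overlap.

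Of 34 genes of mitochondrial translation and tRNA charging, 24 were above 0 and 10 below (median 0.045), where 57.4% of all genes were above 0. The groups did not overlap for 5 (14.7%, against 34.0% of all genes). Pars2, which charges the proline tRNA encoded by mt-Tp, was at 4.15 and 5.16 TPM (WT) against 9.36 and 5.26 TPM (K823R). Its difference rested largely on K823R replicate 1 (log2 difference 0.52, SE 0.28; limma adjusted p = 0.918). Oxa1l, which inserts the newly made subunits into the inner membrane, was at 34.5 and 31.7 TPM (WT) against 43.2 and 35.8 TPM (K823R). On the lower side, Mtfmt, which formylates the initiator tRNA, was at 9.56 and 10.5 TPM (WT) against 9.66 and 9 TPM (K823R), and Rars2, the arginine-tRNA synthetase, was at 17.1 and 17.4 TPM (WT) against 15.95 and 16.04 TPM (K823R).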

How the data were processed

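After DNase I treatment, messenger RNA was isolated and fragmented and cDNA was primed with random hexamers, per the labels' protocols. Without giving roles, the submitters' processing notes list GRCm38.p6, edgeR, RSEM, HISAT2 and fastp 0.19.5. The deposited values are TPM as given by the authors, for 4 libraries grouped by title. The deposited gene length column, another kind of value, equalled the GENCODE M21 length for all 37 genes. The authors' group means were not used.

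Differences were tested with limma 3.58.1 in R 4.3.3 (variance trend, two-sided) on log2(TPM + 1), which understates changes of low genes, over the 15390 genes that averaged 1 TPM or more. P-values were Benjamini-Hochberg adjusted over all of them, with a threshold of 0.05. In 10 simulated sets of the 15390 genes, 36.4% of genes raised 2-fold and 75.6% of those raised 4-fold were recovered. False calls averaged 4.7 per set. The raised genes lay at 10 TPM or more, and the spreads were shuffled over all genes. These rates therefore do not describe the mitochondrial genes in particular. Copies were found with BLAST 2.17.0 against GENCODE M21 transcripts, which also gave the printed sequences and positions. A sum adds the copy's TPM times its length over the gene's length, by annotated lengths in place of effective ones. Summing was chosen after the values were seen. The genes and lists were chosen with earlier results of these data known. Named nuclear genes were the 2 of smallest p in each direction in each list. Permutation tests used scipy 1.17.1, and plots matplotlib 3.10.9. Alternatives were other pseudocounts, filters, scalings and variance models, a replicate block and leaving out each library.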

Additional observations from a re-analysis of the deposited data

How the results depend on the processing

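No mitochondrial gene and no listed nuclear gene passed limma under any of the 14 alternatives run. Of 210 re-estimated differences of the 15 tested genes, 196 kept their sign or were 0 and 14 changed it. The genes that never changed sign were mt-Nd1, mt-Nd2, mt-Nd4, mt-Nd5, mt-Nd6, mt-Co1 (0 under quantile normalization) and mt-Cytb. The sign of mt-Tp changed under upper-quartile scaling (-0.0020), median-of-ratios scaling (-0.0093) and quantile normalization (-0.0018). Leaving out single libraries changed further signs. It gave -0.042 (without WT replicate 1), -0.039 (without K823R replicate 1) and up to 0.069 for mt-Tp, and 0.62 (without WT replicate 1), 0.12 (without K823R replicate 2) and down to -0.67 for mt-Co2. It gave 0.070 (without WT replicate 2), 0.45 (without K823R replicate 1) and down to -0.81 for mt-Nd3. Without WT replicate 2 the values were 0.20 for mt-Rnr1, 0.10 for mt-Rnr2 and 0.069 for mt-Atp8, and without WT replicate 1 they were -0.48, -0.40 and -0.26. With copies summed, mt-Co3 was -0.26 and mt-Nd4l -0.13. Leaving out single libraries moved the median over the tested genes between -0.067 and 0.057 and the difference in TPM share between -0.69 and 0.071 percentage points. The share difference was -0.80 percentage points with the copies. The median ran from -0.095 (median-of-ratios) to -0.034 (quantile) over the scalings. The replicate block left the median at -0.072 and the calls at 0 for both gene sets. Same-numbered libraries deviated together with a correlation of 0.05 across 15390 genes, from 2 pairs, so the numbers were not taken to pair the samples. TPM holds no depth, so limits set by depth could not be measured.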
